A study of Mus musculus with 186 samples.

Results

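The Pwp2 window and motif library is a set of promoter constructs measured by TrAC-seq, a parallel reporter assay with barcodes (BCs), in wild-type (WT) mouse embryonic stem cells (ESCs) and in TKO ESCs. All rows of the library with at least 1 BC in at least 2 replicates of each cell line were compared. Of 34 constructs, 33 met this rule, namely 13 CpG window constructs, 14 motif mutants and 6 constructs with a replaced background, out of 161 construct rows in the 4 libraries measured in both cell lines. The construct left out, with windows 1, 2 and 4 mutated, had WT values only. Constructs with windows 1 to 3 or with all 4 windows mutated were not analysed here.

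Both lines carry a recombination site in the beta-globin locus, into which the constructs were inserted. WT cells have the genotype Wild Type. TKO cells were made from these cells by CRISPR-Cas9 deletion of Dnmt1, Dnmt3a and Dnmt3b and were used as 1 line, so a property of that line and the lack of the enzymes cannot be told apart. Each line has 3 replicates, each with an RNA and a genomic DNA sample, which makes 12 samples. The sources do not say that replicates were separate cultures, so the p-values cover the spread of these samples alone, and that spread may be technical. No endogenous transcript was measured, and the deletion could not be checked in these data. The study itself lists the deleted bases of the 3 genes and methylation levels of both lines by mass spectrometry.

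Pwp2 encodes a protein needed for assembly of the small ribosomal subunit, and its promoter lies in a CpG island, a stretch of DNA that is rich in CpGs and mostly free of DNA methylation. Dnmt1 copies methylation at CpGs after replication, while Dnmt3a and Dnmt3b place it on unmethylated DNA. GABPA is an ETS family activator of housekeeping genes. SP1 and SP3 bind GC boxes, NRF1 binds GC-rich palindromes with CpGs in its core and is known to be blocked by methylation, and MYC binds E-boxes. The question of the comparison is whether mutations of CpGs and of such motifs act alike where no DNA methylation can be placed.

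The native insert covers chr10:77647729-77648156 on mm9, minus strand, 428 bp with 37 CpGs, and holds the annotated start of Pwp2, exon 1 with its 5′ UTR and start codon, and the beginning of intron 1. The full WT construct has 457 bp and 39 CpGs. The mutated sites are shown because the 3 largest differences between the cell lines as deposited fell on mutants of single sites. Capitals mark the named site in the native sequence, small letters 8 flanking bases on each side, all 5′ to 3′ on the minus strand of mm9. The mutated bases themselves are not used here. Positions rest on an offset of 14 bases between construct and insert, as described with the processing.
GABPA 153-161, chr10:77648010-77648018, upstream: tcagctagTTCACCGCTacgcagcg
NRF1 167-177, chr10:77647994-77648004, upstream: gctacgcaGCGCCTGCGTAgaggcagg
SP1/SP3 216-225, chr10:77647946-77647955, upstream: gggagggaCGGGCGGGGCttcccagg
SP1/SP3 248-257, chr10:77647914-77647923, upstream: gggttgcgGCTCCGCCCCggaagtgc
GABPA 255-264, chr10:77647907-77647916, upstream: ggctccgcCCCGGAAGTGcgcgtttt
NRF1 275-284, chr10:77647887-77647896, across the annotated start: cgttttaaGCGCCGGAGAttgtttgt
NRF1 370-379, chr10:77647792-77647801, intron 1: ggcgggccGGGCAGGGGCaacgggag
The SP1/SP3 site at 248-257 and the GABPA site at 255-264 share 3 bases, so that mutations of the one can touch the other. Relative to the annotated start, the GABPA site at 255-264 spans positions -22 to -13 and the NRF1 site at 167-177 spans -110 to -100. Sites are labelled by the construct names. The stretch at NRF1 370-379 holds no CpG inside it, but its first G forms a CpG with the base before it. Its mutant kept the 39 CpGs of the WT construct. The stretch at GABPA 153-161 holds neither GGAA nor TTCC, unlike that at GABPA 255-264. The MYC mutant carries no position in its name. The insert holds 1 E-box (CACGTG, the same letters on both strands) at chr10:77647844-77647849 in the 5′ UTR, and whether it is the site that was mutated is not known here.
E-box: cggtacccCACGTGtggttcca
Of 22380 windows placed in the same way around the starts of protein-coding genes, 9.44% hold these letters.

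The deposited activity of a construct is its RNA over DNA BC reads plus 0.05, as a geometric mean over BCs, and it is used here as log2. No value can fall below -4.32 on this scale, and constructs with a mean within 0.5 of it are called near the floor, which held for 7 constructs in WT and 9 in TKO. Replicates of WT rested on 1107, 394 and 462 BCs and those of TKO on 390, 356 and 366, with medians between 9 and 27 per construct and 1 to 6 constructs per replicate under 3 BCs. Read totals are unknown. Among constructs above the floor, the median SD between replicates was 0.39 in WT and 0.47 in TKO. It was 0.81 and 0.55 for those with under 5 BCs and 0.37 and 0.46 for the others. Replicates of a line had Spearman correlations of 0.91 to 0.954 over the 33 constructs.

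The WT construct showed activities of 2.40, 3.49 and 3.04 in WT cells and 0.994, 2.25 and 2.06 in TKO cells. All TKO values were below all WT values, and the first TKO replicate was the lowest. The mean log2 activity was 1.56 ± 0.27 in WT and 0.73 ± 0.65 in TKO (SD, n = 3 each). The difference of -0.82 (95% interval -1.72 to 0.070) did not pass the test (limma, adjusted p = 0.327). This construct is the reference of all relative values, so its TKO-WT difference enters every one of them. Values are therefore given both relative to it and as deposited.

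Most constructs ranked alike in the 2 cell lines. The mean log2 activities of WT and TKO had a Spearman correlation of 0.933 and a Pearson correlation of 0.968 over 33 constructs, which share libraries, BCs and floor. As deposited, 24 constructs were lower and 9 higher in TKO, with a median difference of -0.283. Relative to the WT construct, 4 of 32 were lower and 28 higher, with a median of 0.566. The direction of most constructs thus depended on the scale. As deposited, 1 construct was lower in TKO (3.03% of 33 tested) and 0 were higher (limma, adjusted p threshold of 0.05, against 3 lower and 0 higher at an unadjusted p under 0.05). Relative to the WT construct, 1 was higher (3.12% of 32) and 0 were lower, against 3 higher and 0 lower unadjusted. The call was a different construct on each scale.

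The construct lower in TKO as deposited was the mutant of the GABPA site at 255-264, the ETS motif next to the start site. Its activities were 0.309, 0.200 and 0.195 in WT and 0.0708, 0.0747 and 0.0860 in TKO, on 26, 11 and 12 BCs and on 11, 6 and 8. The TKO values all lay below the WT values and close to the lowest measurable activity of 0.05. The difference was -1.58 on the log2 scale (SE 0.23, 95% interval -2.14 to -1.01, limma adjusted p = 0.019), or 2.98-fold. Relative to the WT construct, this mutant had -3.68 ± 0.63 in WT and -4.43 ± 0.56 in TKO (SD, n = 3), and the difference of -0.75 (95% interval -1.96 to 0.46) did not pass (adjusted p = 0.585). Centred on the median construct of each replicate, the difference was -1.37 and did not pass (limma adjusted p = 0.0566). With the replicate number as a block, the deposited difference also did not pass (adjusted p = 0.0794). It passed without WT replicate 1 or 2 (adjusted p = 0.0205 and 0.0294) and not without WT replicate 3 or TKO replicate 1, 2 or 3 (0.0554, 0.103, 0.101 and 0.0649).

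With both sites mutated, the activities were 0.222, 0.273 and 0.230 in WT on 9, 3 and 4 BCs. In TKO they were 0.183, 0.190 and 0.206 on 6, 4 and 5 BCs, also without overlap between the lines. Their difference was -0.32 as deposited (95% interval -0.69 to 0.050, adjusted p = 0.327) and 0.50 relative to the WT construct (adjusted p = 0.625). The mutant of both sites was thus at 0.241 in WT, beside 0.229 for the single mutant, and at 0.193 in TKO, beside 0.0769. Within a replicate, the double mutant exceeded the single mutant by 0.072 ± 0.49 on the log2 scale in WT and by 1.33 ± 0.058 in TKO (SD, n = 3). This ratio needs no reference, but it reuses the values of the single mutant and is no second observation. Its 3 TKO values lay above its 3 WT values (difference 1.26, exact permutation test, two-sided, p = 0.1, the smallest that 3 against 3 can give, adjusted over 6 such ratios 0.2). The 6 ratios were chosen after the values were seen. The mutant of the GABPA site at 153-161 had activities of 2.34, 5.55 and 2.09 in WT and 3.90, 2.23 and 0.478 in TKO on 1 to 4 BCs. Its groups overlapped, and the interval of the relative difference ran from -1.29 to 1.13. That interval uses an error shared by all constructs, while the relative SDs of this mutant were 0.61 in WT and 2.04 in TKO. As deposited, its difference was -0.90 (95% interval -3.02 to 1.22).

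The mutant of the SP1/SP3 site at 248-257, which overlaps the GABPA site, had activities of 0.252, 0.116 and 0.236 in WT and 0.0837, 0.0732 and 0.0784 in TKO. These values did not overlap, and they rested on 4 to 12 BCs in WT and 3 to 5 in TKO. The difference was -1.28 as deposited (95% interval -2.09 to -0.47, adjusted p = 0.141) and -0.46 relative to the WT construct (adjusted p = 0.625). Without WT replicate 2, whose value was the lowest in WT, the deposited difference passed (-1.64, adjusted p = 0.00579). Within a replicate, this mutant and the GABPA 255-264 mutant differed by -0.26 ± 0.53 in WT and by 0.027 ± 0.19 in TKO.

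With both SP1/SP3 sites mutated, activities were 0.0778, 0.0648 and 0.0660 in WT and 0.0537, 0.0594 and 0.0579 in TKO, near the floor in both. The mutant of the distal site at 216-225 had 2.13, 1.61 and 2.19 in WT and 1.92, 0.819 and 3.76 in TKO, and its groups overlapped. Within a replicate, the double mutant was below the 248-257 mutant by a log2 ratio of -1.46 ± 0.54 in WT and -0.46 ± 0.17 in TKO, without overlap (exact permutation p = 0.1, adjusted over 6 ratios 0.2). The floor limits this ratio in TKO, where the single mutant already had 0.0783. A construct named Spmutseq had activities of 0.0540 to 0.0654 in WT and 0.0640 to 0.0692 in TKO, and one named Spdelseq, 418 bp long, had 0.122 to 0.200 and 0.0625 to 0.147. Their differences as deposited were 0.21 and -0.79, and neither passed (adjusted p = 0.478 and 0.327).

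The construct higher in TKO relative to the WT construct was the mutant of the NRF1 site at 167-177, which lies upstream of the start. Its activities were 0.759, 2.08 and 2.61 in WT and 3.39, 6.75 and 2.78 in TKO. All TKO values were above all WT values, and TKO replicate 2 was the highest of any construct in the library. They rested on 7, 2 and 3 BCs in WT and on 5 in each TKO replicate. Relative to the WT construct, log2 values were -1.66, -0.74 and -0.22 in WT and 1.77, 1.59 and 0.43 in TKO, so that the mutant was below the reference in every WT replicate and above it in every TKO replicate. The difference was 2.14 (SE 0.61, pooled over constructs that share the reference, 95% interval 0.93 to 3.35, limma adjusted p = 0.0201), or 4.40-fold. As deposited it was 1.32 (95% interval -0.11 to 2.74) and did not pass (adjusted p = 0.327), and the lower TKO value of the reference makes up the rest. The relative difference also did not pass without WT replicate 1 (1.75, adjusted p = 0.39), WT replicate 2 (0.0893), TKO replicate 1 (0.158) or TKO replicate 2 (0.131), and passed without WT replicate 3 or TKO replicate 3 (0.0454 and 0.00637).

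The other NRF1 mutants had smaller differences. The mutant of the site across the start at 275-284 had activities of 2.10, 1.04 and 1.501 in WT and 2.51, 2.05 and 1.29 in TKO. That of the intronic site at 370-379 had 1.10, 1.78 and 1.63 in WT and 1.36, 1.79 and 1.17 in TKO. Both overlapped between the lines, with differences of 0.34 and -0.056 as deposited and of 1.16 and 0.77 relative to the WT construct (adjusted p = 0.469 and 0.585 for the latter). The mutant of all NRF1 sites had 1.05, 0.909 and 1.23 in WT and 0.961, 0.575 and 0.861 in TKO. Its differences were -0.44 as deposited and 0.39 relative to the WT construct. The MYC mutant had 1.77, 1.03 and 1.57 in WT and 1.41, 0.943 and 1.34 in TKO, with overlap and a relative difference of 0.59 (95% interval -0.61 to 1.80).

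Mutation of all factors' motifs together left 0.0671, 0.0800 and 0.0619 in WT and 0.05 in each TKO replicate. The TKO values lie at the pseudocount, on 18 to 24 BCs per replicate, so that the floor bounds the difference of -0.47 as deposited (unadjusted p = 0.0223, limma adjusted p = 0.246).

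Single mutations of CpG windows, in which C was changed to A in CpGs outside bound motifs, are named by the position of the window in the construct name. Window 1 alone gave activities of 1.75, 1.28 and 1.82 in WT and 3.49, 1.61 and 1.62 in TKO. Window 2 alone gave 0.656, 0.679 and 1.10 in WT and 0.508, 0.891 and 0.524 in TKO. Window 3 alone gave 0.298, 1.08 and 0.230 in WT and 0.208, 0.326 and 0.325 in TKO, and its high WT value rested on 1 BC. Window 4 alone gave 3.61, 2.12 and 4.23 in WT and 3.66, 2.58 and 1.43 in TKO. The groups overlapped for all 4, and window 3 had the lowest mean of the 4 in both lines. No window construct passed on either scale. The largest relative differences were those of windows 1 and 2 together (1.37, 95% interval 0.16 to 2.57, adjusted p = 0.427) and window 1 alone (1.21, 95% interval 0.00705 to 2.42, adjusted p = 0.469). With windows 1 and 2 mutated, the activities were 0.700, 0.672 and 0.444 in WT and 0.577, 0.644 and 1.74 in TKO. With windows 2, 3 and 4 mutated, they were 0.0848, 0.0532 and 0.173 in WT on 2 to 7 BCs and 0.05 in each TKO replicate on 2 to 3.

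The effect of each window was also fitted over the 13 window constructs in each replicate, as the change in log2 activity on mutation with the other windows held fixed. This needs no reference between replicates. The fit takes window effects as additive, which was not tested. Window 2 alone had 26.8% of the reference in WT and 37.2% in TKO, and windows 2 and 4 together had 59.8% and 84.4%. The fit also includes the construct of windows 2, 3 and 4, at the floor in TKO, so the floor can limit the effects of these windows. Window 3 had effects of -3.34, -2.95 and -3.61 in WT and -3.26, -2.97 and -3.71 in TKO, so that mutated constructs kept 10.2% and 10.1% of the activity. Window 2 had -1.32, -1.79 and -1.11 in WT and -1.48, -1.29 and -1.06 in TKO. For both windows the groups overlapped, and the means differed by -0.017 and 0.13, less than the SD between replicates. Window 4 had -0.15 ± 0.55 in WT and -0.23 ± 0.32 in TKO. Window 1 had -0.33, -0.84 and -0.84 in WT and 0.062, -0.52 and 0.49 in TKO, a mean of -0.67 ± 0.29 against 0.011 ± 0.50. Its difference of 0.68 was the largest of the 4, with overlapping groups (exact permutation tests, two-sided, p = 0.2 for window 1, 0.6, 0.9 and 1 for windows 2 to 4, adjusted over 4 windows 0.8, 1, 1 and 1). The test cannot go below 0.1.

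The slope of log2 activity on CpG density (the observed over expected ratio of CpGs, OE) over the 13 window constructs was 9.29, 10.8 and 9.10 in WT and 8.29, 9.58 and 8.74 in TKO. The groups overlapped, with a mean difference of -0.86 (SD 0.93 in WT and 0.65 in TKO, unpaired exact permutation p = 0.3). The TKO slope was below the WT slope in 3 of 3 same-numbered pairs (exact sign-flip test, p = 0.25, the smallest it can give). With at least 3 BCs in 2 replicates of each line, the slope difference was -2.43 without overlap (p = 0.1), and that of the window 1 effect was 0.91 (p = 0.1). That filter drops the constructs of windows 1 and 4, of windows 1, 3 and 4 and of windows 2, 3 and 4. Those of 3 windows have the lowest OE (0.538 and 0.564). The filtered slope thus spans a narrower range of OE and is not set against the slope over 13 constructs. Over all 33 constructs the slopes were 2.33 ± 0.18 in WT and 2.06 ± 0.16 in TKO (p = 0.2), lower in TKO in 3 of 3 pairs. These include the 13 window constructs and are no separate observation. OE had Spearman correlations with mean log2 activity of 0.126 in WT and 0.112 in TKO over all 33. Over the window constructs these were 0.559 and 0.536. As a description over constructs, TKO minus WT had a Spearman correlation with OE of -0.313 over the 13 window constructs and -0.204 over all 33.

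Of the 6 replaced-background constructs, 4 were near the floor in WT and 5 in TKO. The construct BackGr, with 2 CpGs, had activities of 0.0571 to 0.0626 in WT and 0.05 to 0.0519 in TKO, and BackGrCG, with 39 CpGs, had 0.0544 to 0.0609 and 0.0504 to 0.0616. The motifs that the replaced backgrounds hold are known here from their names only. The pair named allImpMotifs, with 9 CpGs, and allImpMotifsCG, with 40, had 0.0579 to 0.0619 and 0.0751 to 0.0970 in WT and 0.0611 to 0.0644 and 0.0635 to 0.0721 in TKO. The construct allMotifs, with 14 CpGs, had 0.0635, 0.0645 and 0.0658 in WT and 0.0632, 0.0644 and 0.0507 in TKO. Its counterpart with 40 CpGs, allMotifsCG, had 0.167, 0.168 and 0.172 in WT and 0.230, 0.146 and 0.180 in TKO on 25 to 102 BCs, and all 6 of these values were above all 6 values of allMotifs. The construct allMotifs is near the floor in both lines, so the pseudocount compresses its ratio to allMotifsCG. The log2 ratio as measured was 1.39 ± 0.0044 in WT and 1.62 ± 0.39 in TKO, with overlap (exact permutation p = 0.4). For allImpMotifs the log2 ratio was 0.52 ± 0.15 in WT and 0.080 ± 0.14 in TKO, without overlap (p = 0.1, adjusted over 6 ratios 0.2). The construct allImpMotifs is near the floor in both lines and allImpMotifsCG is near it in TKO. The floor thus limits this ratio, above all in TKO, and a lost effect of CpGs cannot be read from it. For BackGr the log2 ratio was -0.023 ± 0.16 in WT and 0.12 ± 0.16 in TKO, with both constructs near the floor in both lines. No replaced-background construct passed between the lines on either scale.

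Within each line, mutants were also compared with the WT construct of the same replicate (limma, adjusted p threshold of 0.05). In WT, 25 of 32 were lower (78.1%) and 0 higher. In TKO, 22 were lower (68.8%) and 1 was higher (3.12%), the NRF1 167-177 mutant at 240% of the reference. Of 12 window mutants 8 were lower in each line, of 14 motif mutants 11 in WT and 8 in TKO, and of 6 replaced backgrounds 6 in each. The calls differed between the lines for 4 constructs, all of them motif mutants of NRF1 or MYC. The NRF1 mutants at 275-284 and 370-379 and the MYC mutant were lower in WT at 50.4%, 50.0% and 48.3% of the reference, and had 113%, 85.1% and 72.9% in TKO without passing. Of these 4, only the NRF1 167-177 mutant also differed between the lines in the test of the difference itself. Similar values were not limited to motif mutants. Window 1 alone had 54.2% in WT (limma adjusted p = 0.0524) and 126% in TKO (0.547), and passed in neither line. The error of the single reference is shared by all these calls. The SE of 0.43 was pooled over both lines and all constructs, although the reference had a log2 SD of 0.27 in WT and 0.65 in TKO. Calls in the 2 lines therefore do not rest on the spread of each line alone.

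As deposited, every TKO value lay below every WT value for 9 of 33 constructs (27.3%) and above for 1 (3.03%). Relative to the WT construct, this held for 0 of 32 below and 6 above (18.8%). Of the 9 constructs below as deposited, 5 were motif mutants, 2 window constructs and 2 replaced backgrounds.

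BackGr was also part of a further Pwp2 library, with deposited TKO-WT differences of -0.22 (SE 0.13) here and -0.22 (SE 0.086) there, near the floor in both. The construct named WT in that library had a difference of -0.25 (95% interval -0.74 to 0.23, limma adjusted p = 0.325), beside -0.82 for the reference here, and the difference between the libraries was not tested. In that library the median difference was -0.32 over 22 constructs, beside 0.0744 over 33 constructs of the Snx3 library and 0.0827 over 51 constructs of a library of further promoters. These libraries were scaled separately, so their levels are set side by side only. The study pooled the window and motif library with another promoter library in both lines, and not in the same way, so a shift common to all constructs as deposited cannot be told apart from a change in the pool.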

How the data were processed

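Library constructs were inserted at 1 genomic site of WT and TKO ESCs, and RNA and DNA BCs were sequenced, in 3 replicates per line. The deposited activity is a ratio: the authors scaled RNA and DNA reads to the smaller total of a replicate, kept BCs with more than 20 DNA reads, added 0.05 to RNA over DNA, and took the geometric mean over BCs. The deposited numbers of BCs and of CpGs are counts by the authors, OE is a ratio, and G+C content is deposited in percent. The authors assigned BCs to these mutants by string distance in R; the submitters' processing notes also name Bowtie and mm9, and no source used here gives a version. The authors' deposited start and end of the insert were used for coordinates.

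Activities were converted to log2, as deposited and after division by the WT construct of the replicate. TKO and WT were compared with limma 3.58.1 in R 4.3.3 (two-sided, Benjamini-Hochberg over all constructs, threshold 0.05). In the relative fit the estimated prior degrees of freedom were infinite (1.68 as deposited), so that all constructs share an SE of 0.61. All relative values of a replicate carry the same reference, so the constructs are not independent, as that estimate assumes them to be. The p-values of the relative fit rest on this assumption. Window effects and slopes were least squares estimates per replicate, compared by exact permutation. The fit of deposited values was tested on simulated data with independent noise, without a floor or a shared reference. The relative fit was not tested in this way. Python 3.11.15, numpy 2.4.6, pandas 2.3.3 and scipy 1.17.1 were used otherwise. Precision is limited by the number of BCs, and read totals are unknown.

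Samples were grouped by library, genotype and replicate number in the labels. Deviations from the line means correlated between same-numbered WT and TKO replicates (r = 0.277, 0.373 and 0.119 over 33 constructs), with -0.282 to 0.0223 for other pairs. Deviations cancel out within a line, so positive values for same-numbered pairs force those of other pairs down. The contrast is therefore no separate evidence of pairing. Whether the numbers pair the samples is not known, since the labels give only the number. The fit without the block was kept as the main result, and the block is an alternative.

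Construct positions were placed on mm9 (NCBIM37, GENCODE M1) with an offset of 14. With it, the named sites account for the CpGs lost in 6 of 7 single-site mutants, all but NRF1 370-379. Both SP1/SP3 sites match the 10 letters of a GC box at 9 positions with this offset. An offset of 13 accounts for 7 of 7 and matches 5 and 6 letters. The bases shown rest on this choice.

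The constructs named are the WT construct, single window mutants, all motif mutants and replaced backgrounds, and the 3 largest differences in each direction where fewer than 3 passed, on either scale. The construct of windows 2, 3 and 4 and the 2 constructs of the further Pwp2 library were named after their values were seen. Members, tests and lists were chosen with earlier results of these data known.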

Additional observations from a re-analysis of the deposited data

Results flagged for a closer look

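The mutant of the NRF1 site at 167-177 differed between the cell lines in its activity relative to the WT construct. It was below the reference in 3 of 3 WT replicates and above it in 3 of 3 TKO replicates. Against the WT construct itself, -0.88 in WT did not pass (limma adjusted p = 0.0529) and 1.26 in TKO did (0.00611). The test of the difference passed (2.14 on the log2 scale, limma adjusted p = 0.0201 over 32 constructs, which share the reference and so are not independent). Its adjusted p ranged from 0.00494 to 0.39 over the alternatives. It rested on 2 to 7 BCs per replicate, and the part of single BCs in the result was not tested. With 3 replicates per line, single samples could not be examined for values far from the others.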

How the results depend on the processing

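Relative to the WT construct, the number higher in TKO was 0 with weights by BC number, with a trended and robust variance, centred on the median construct and as deposited, was 0 to 1 with a replicate left out, and stayed at 1 under the other alternatives, the replicate block among them (NRF1 167-177, adjusted p = 0.01). The number lower was 1 as deposited. As deposited, the number lower was 0 with the replicate block, 5 with a trended and robust variance and 0 to 2 with a replicate left out, and stayed at 1 under the other alternatives. With trended and robust variance these 5 were the mutants GABPA 255-264, SP1/SP3 248-257, SP1/SP3 all and all factors, and BackGr. Without pairing within the lines, 27 mutants in WT and 22 in TKO were below the WT construct, instead of 25 and 22. The pairing changed no other call, and its sign-flip tests gave exact p = 0.25, 0.75, 0.75 and 1 for windows 1 to 4 and 0.25 for the slope, where 0.25 is the smallest possible. In TKO, the number of mutants above the WT construct was 0 with a trended and robust variance and 0 to 1 with a replicate left out.

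Signs that turned are those of differences that did not pass. Centred on the median construct, log2 differences were -0.14, -0.38 and -0.21 for windows 2, 3 and 4 alone, -0.015 for BackGr, -0.11 for GABPA all, -0.23 for NRF1 all, -0.077 for SP1/SP3 all, -0.17 for allImpMotifsCG, -0.58 for Spdelseq, -0.26 for all factors and -0.025 for MYC. As deposited they were -0.35, -0.58 and -0.42 for those windows, -0.075 for BackGrCG, -0.22 for BackGr, -0.32 for GABPA all, -0.056 for NRF1 370-379, -0.44 for NRF1 all, -0.11 for SP1/SP3 216-225, -0.28 for SP1/SP3 all, -0.37 for allImpMotifsCG, -0.13 for allMotifs, -0.79 for Spdelseq, -0.47 for all factors and -0.23 for MYC. With weights, Spdelseq had -0.10 relative and NRF1 370-379 had 0.013 as deposited, and without values under 3 BCs window 3 alone had 0.10 as deposited.

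With a replicate left out, relative differences ran from -0.22 to 0.80 for window 3 alone, -0.28 to 0.92 for window 4 alone, -1.09 to 0.95 for GABPA 153-161, -0.13 to 0.82 for NRF1 all, -0.70 to 0.51 for Spdelseq and -0.017 to 0.57 for all factors. As deposited they ran from -1.02 to 0.10 for window 3 alone, -0.27 to 0.083 for NRF1 370-379, -0.64 to 0.46 for SP1/SP3 216-225 and -0.060 to 0.27 for allMotifsCG. Fitted window effects differed by -0.060 to 0.28 for window 2, -0.19 to 0.18 for window 3 and -0.34 to 0.21 for window 4.

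The effect of window 3 differed by 0.032 with at least 3 BCs, 0.087 with weights and 0.11 through the WT construct, and that of window 4 by 0.28, 0.042 and 0.051. Each of these is below the SD between replicates, and the cause of the changes was not tested. Values rest on few BCs and on 1 reference construct. Near the floor, differences are compressed as deposited and follow the reference on the relative scale.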
